A study of Saccharomyces cerevisiae with 9 samples.

Results

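The 34 genes described here encode the enzymes of glycolysis, ethanol fermentation, acetate formation and glycerol metabolism in baker's yeast, Saccharomyces cerevisiae. They were taken by gene symbol from the platform annotation, and 33 of the 34 had a probe set of their own, out of 5656 genes that did. TDH2 was read only by probe sets shared with TDH1 or TDH3, and PDC6 was too dim to test, which left 32 members among the 4537 genes tested. The mRNA levels come from 9 arrays (Affymetrix Yeast Genome S98), 3 for each of 3 plasmids. All strains were cth1cth2 deletion cells. The CTH2 group carried pRS416-CTH2, the CTH1 group carried pRS416-CTH1 and the vector group carried pRS416 with no insert. Cultures of all 3 groups were kept at 30 °C for about 6 hours in uracil-free medium containing the iron chelator bathophenanthroline disulfonate (BPS) at 100 µM, so both deletions and iron shortage are common to every array. Genes on a plasmid need not be expressed at the level of a chromosomal copy, and the labels leave unsaid whether each replicate was its own transformant. The p-values thus speak only for these 3 cultures of each kind, and may not cover variation between transformants. Those from limma also rest on a spread estimated over all 9 arrays, with information from the other genes tested.

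Cth1 and Cth2 are zinc finger proteins that attach to AU-rich stretches of mRNA and promote its decay when iron is scarce, and many of their known targets encode respiratory and other iron-using proteins. Glycolysis splits glucose to pyruvate without haem or iron-sulphur enzymes. Pyruvate decarboxylase and alcohol dehydrogenase then form ethanol and regenerate NAD, aldehyde dehydrogenases form acetate, and glycerol formation is a second outlet for NADH. Many steps have several isoenzymes, of which some are made during growth on glucose and others are repressed by it. The comparisons ask, step by step and between isoenzymes, whether either protein alone altered these mRNAs under iron limitation.

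Median MAS5 signals were 153 to 184, with the CTH2 arrays (165, 184 and 179) all above the vector arrays (156, 164 and 153). The highest signal on an array ran from 16624 in CTH2 replicate 2 to 32341 in CTH2 replicate 3, so the bright end varied within a group. The plasmid genes followed the labels. The CTH2 signal (annotated as TIS11) was 3389 to 4498 with the CTH2 plasmid and at most 10.2 on any other array. The CTH1 signal was 231 to 592 with the CTH1 plasmid and at most 14.3 on any other array. Of the 33 members with a probe set, 10 were in the brightest 1% of genes and 18 in the brightest 5%, up to a signal of 27602. CTH1 replicate 3 stood apart in the median deviation of short genes (coding length up to 400 bases) minus that of long ones (over 900 bases), at -0.738 on the log2 scale against -0.0469 to 0.295 on the other arrays.

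Most of the pathway had similar signals with all 3 plasmids. The hexokinase gene HXK1 and the glycerol-3-phosphate dehydrogenase gene GUT2 had the highest values relative to vector among the 32 tested members, at 1.05 and 0.96 on the log2 scale with CTH2. No member passed at an adjusted p under 0.05 over all genes in any comparison. For CTH2 against vector, limma called 0 of 32 members where 0.287% of all genes were called. An unadjusted p under 0.05 was reached by 3 members, all higher with CTH2 (9.38% of the 32, beside 5.07% higher, 4.3% lower and 9.37% in either direction among all genes). For CTH1 against vector, 0 members were called (0% of all genes), and 2 had an unadjusted p under 0.05, both higher (6.25%, beside 3.86% higher, 3.06% lower and 6.92% in either direction). For CTH2 against CTH1, 0 members were called (0.022% of all genes) and 1 had an unadjusted p under 0.05, higher with CTH2 (3.12%, beside 3.95% higher, 3.55% lower and 7.49% in either direction). The F test over the 3 groups also called 0 members, with 0.022% of all genes called and 8.49% at an unadjusted p under 0.05.

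**Figure D1:**
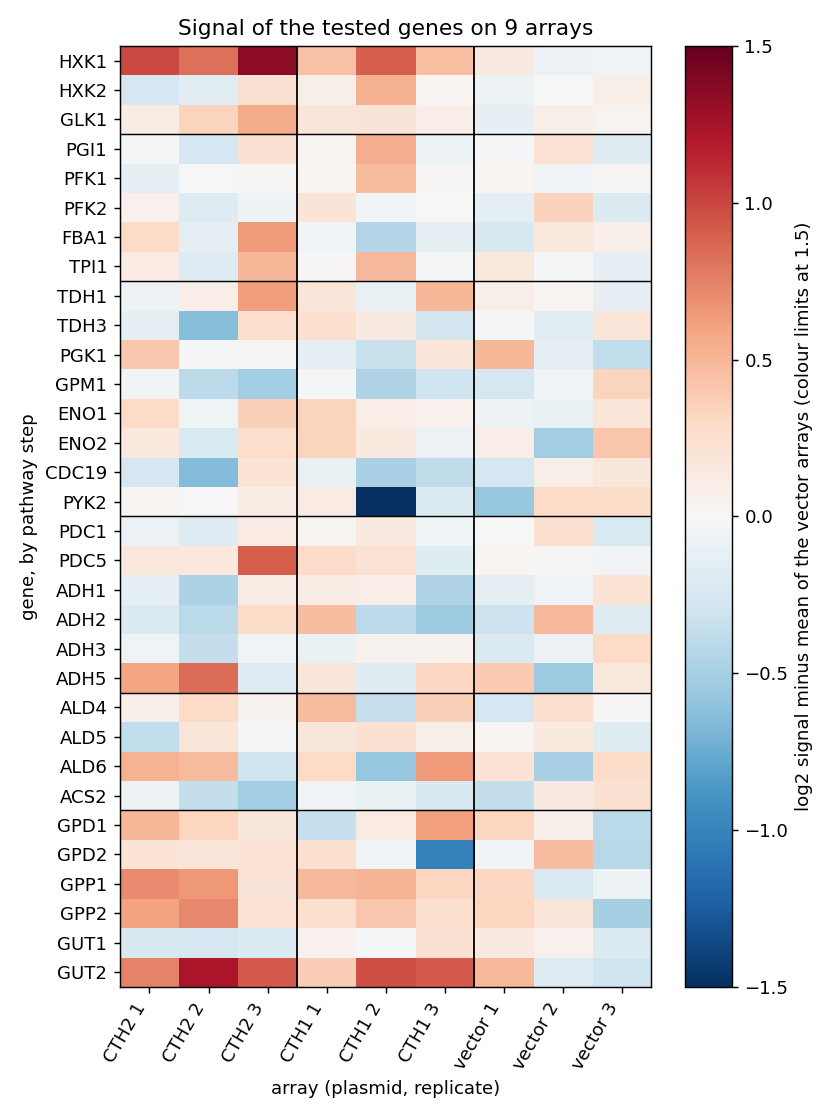
Rows are the 32 tested genes by pathway step and columns the 9 arrays (CTH2, CTH1, vector, replicates 1 to 3). Colour gives the log2 signal minus the mean of the 3 vector arrays, with limits at 1.5, and 1 value, PYK2 in CTH1 replicate 2, lies beyond them. HXK1, GUT2, GLK1, GPP1 and GPP2 are above the vector mean on all CTH2 and CTH1 arrays, while most rows show no common shift.

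The median difference of the 32 members from vector was 0.10 with CTH2 and 0.11 with CTH1, beside 0.07 and 0.06 over all genes tested. Values lay above 0 for 18 of 32 members with CTH2 (56.2%, beside 59.1% of all genes) and for 23 of 32 with CTH1 (71.9%, beside 58.6%). After each array was scaled to a common median, which moved the median of all genes to -0.03 and 0.00, these counts were 16 and 19. After quantile normalization, with a median of all genes of 0.00 and 0.02, they were 22 and 25 and the members' medians 0.17 and 0.15. Both comparisons use the same vector arrays, so their values are not independent. The 95% interval stayed within a factor of 2 for 27 of 32 members with CTH2 (84.4%, beside 75.7% of all genes) and for 29 of 32 with CTH1 (90.6%, beside 77.4%). For CTH2 against CTH1 it did so for 30 of 32 (93.8%, beside 78.3%), and the median difference was 0.03, beside 0.01 over all genes, with 17 members above 0 (53.1%, beside 51.5%).

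**Figure D2:**
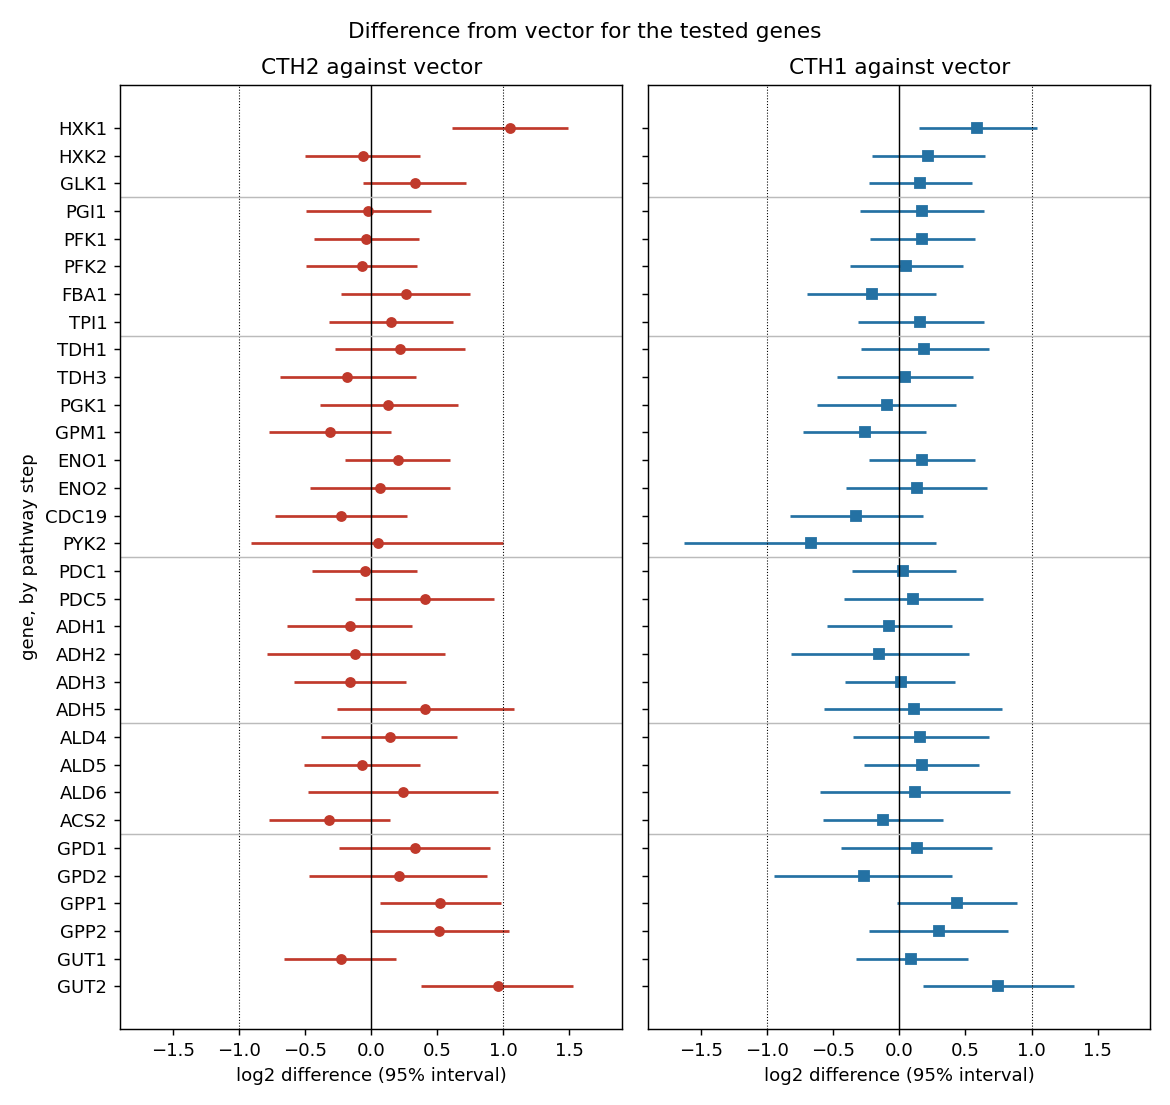
Points are log2 differences from vector and lines their 95% intervals from limma (3 arrays per group), for CTH2 on the left and CTH1 on the right. Grey lines part the pathway steps and dotted lines mark a factor of 2. HXK1 at the top and GUT2 at the bottom have intervals above 0 in both panels, as GPP1 does for CTH2, and every other interval includes 0.

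Hexose phosphorylation begins the pathway. HXK2 is the main hexokinase during growth on glucose, while HXK1 and the glucokinase gene GLK1 are known as glucose-repressed. HXK1 (YFR053C) had signals of 4357, 3904 and 5557 in the CTH2 arrays, 2982, 4092 and 3005 in the CTH1 arrays, and 2423, 2084 and 2114 in the vector arrays. All CTH2 and all CTH1 arrays were above all vector arrays, while the CTH2 and CTH1 ranges overlapped. In bulk cultures, more cells with an mRNA and more of it per cell cannot be told apart. The difference was 1.05 with CTH2 (SE 0.2, a fold of 2.07, limma unadjusted p = 0.00022, adjusted p = 0.063). It was 0.59 with CTH1 (SE 0.2, a fold of 1.51, limma adjusted p = 0.65), and 0.46 between CTH2 and CTH1 (SE 0.2, limma adjusted p = 0.64). The CTH2 value passed in 4 of 16 other settings and not in the remaining 12. The limma adjusted p was 0.025 after quantile normalization and 0.016 with array weights. It was 0.037 with only these 2 groups and 0.033 without CTH1 replicate 2. Leaving out any single vector or CTH2 array gave a limma adjusted p of 0.096 to 0.24, above the threshold. Over 16 alternatives the difference ran from 0.91 to 1.16 and the limma adjusted p from 0.016 to 0.24.

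GLK1 (YCL040W) had signals of 4461, 5207 and 6068 in the CTH2 arrays, 4711, 4741 and 4412 in the CTH1 arrays, and 3794, 4396 and 4233 in the vector arrays. The groups with a plasmid gene did not overlap with vector. Yet the lowest CTH1 array (4412) and the lowest CTH2 array (4461) were only just above the highest vector array (4396). The differences from vector were small, 0.33 with CTH2 (SE 0.18, limma adjusted p = 0.61) and 0.16 with CTH1 (SE 0.18, limma adjusted p = 0.88). A probe set shared by GLK1 and YCL042W gave 0.42 and 0.10, so the CTH2 value was of like size there. Its CTH2 signals of 2201, 3175 and 3515 overlapped the vector signals of 1915, 2408 and 2240, however. HXK2 (YGL253W) had signals of 6773, 7254 and 9381 in the CTH2 arrays, 8570, 11701 and 8265 in the CTH1 arrays, and 7665, 8032 and 8519 in the vector arrays. All 3 groups overlapped, with differences from vector of -0.06 with CTH2 (95% interval -0.50 to 0.37) and 0.22 with CTH1 (-0.21 to 0.65), the last being 0.06 without CTH1 replicate 2.

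**Figure D3:**
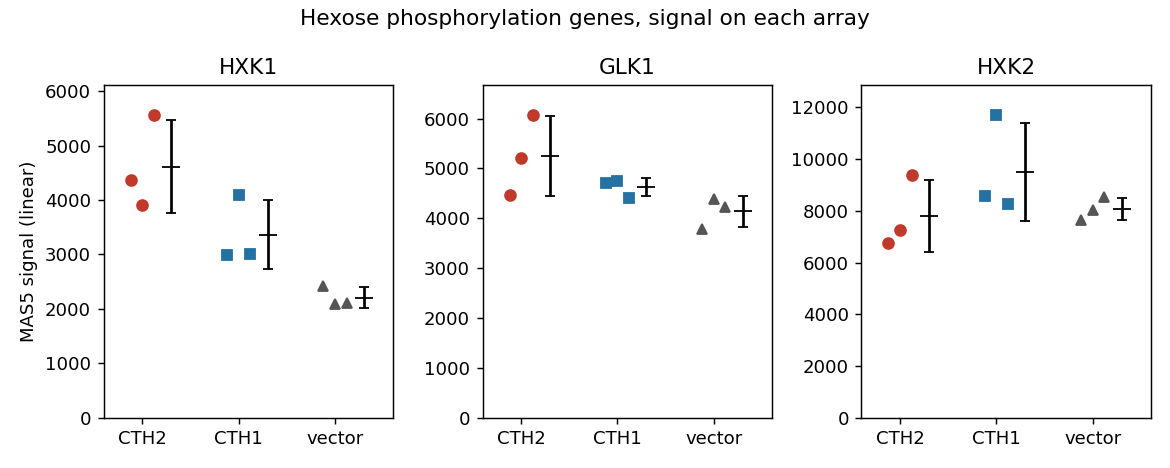
MAS5 signal (linear axis from 0) of HXK1, GLK1 and HXK2 on each array with the CTH2, CTH1 or empty plasmid, with the mean and SD of 3 arrays beside the points. The HXK1 points of the CTH2 arrays (3904 to 5557) and CTH1 arrays (2982 to 4092) are above those of the vector arrays (2084 to 2423), whereas the HXK2 groups overlap.

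The balance between HXK1 and HXK2 separated all 3 groups. The log2 ratio of the HXK1 to the HXK2 signal was taken within each array. Since each probe set has its own brightness, the ratio is compared between groups only and does not say which mRNA was more abundant. It was -0.64, -0.89 and -0.76 in the CTH2 arrays, -1.52, -1.52 and -1.46 in the CTH1 arrays, and -1.66, -1.95 and -2.01 in the vector arrays. The ratio was thus highest on all 3 CTH2 arrays and lowest on all 3 vector arrays, with no overlap. The group means differed by 1.11 between CTH2 and vector, by 0.37 between CTH1 and vector and by 0.74 between CTH2 and CTH1. An exact permutation test of the spread among the group means, over the 1680 assignments of the arrays to 3 groups, gave p = 0.0036, the smallest it can give (adjusted p = 0.039 over the 11 pairs tested). For any 2 groups of 3 arrays the exact permutation test cannot go below 0.1, which all 3 comparisons of this ratio reached. The HXK1 values were known when the pairs were listed, so this p is not independent evidence. The call was lost when any CTH1 array was left out, with exact permutation adjusted p of 0.059 to 0.079, while the difference of CTH1 from vector was then 0.35 to 0.39.

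The other 10 pairs of isoenzymes or subunits did not pass. GLK1 against HXK2 was next, with log2 ratios of -0.60, -0.48 and -0.63 in the CTH2 arrays, -0.86, -1.30 and -0.91 in the CTH1 arrays, and -1.01, -0.87 and -1.01 in the vector arrays (exact permutation p = 0.032, adjusted p = 0.18). The CTH2 arrays were above all others, by 0.39 over vector and 0.45 over CTH1 on average. This ratio shares HXK2 with HXK1/HXK2, so the 2 pairs are not independent. Between CTH2 and CTH1, GLK1 differed by 0.17 and HXK2 by -0.28, and each overlapped between these groups. For PDC5 against PDC1 the CTH2 arrays, at -4.83, -4.74 and -4.29, were again above all CTH1 arrays (-5.20 to -4.84) and vector arrays (-5.31 to -4.89), with an exact permutation p of 0.071 and an adjusted p of 0.26. The remaining 8 pairs had an adjusted exact permutation p of 0.94 each. They were PFK2/PFK1, TDH1/TDH3, ENO1/ENO2, PYK2/CDC19, ADH2/ADH1, ALD6/ALD4, GPD1/GPD2 and GPP2/GPP1, and their mean differences from vector ran from -0.03 to 0.40 with CTH2 and from -0.35 to 0.41 with CTH1. The TDH2/TDH3 pair could not be tested, since TDH2 had no probe set of its own.

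**Figure D4:**
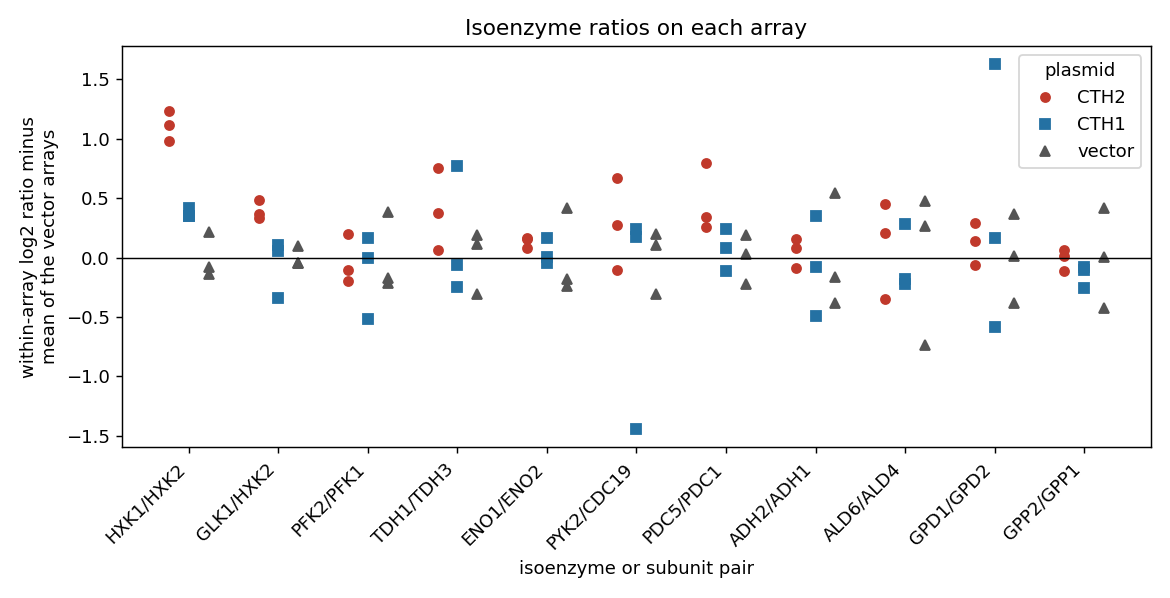
For each of 11 pairs, points give the within-array log2 ratio of the first gene's signal to the second's, minus the mean of the 3 vector arrays, for CTH2 (red circles), CTH1 (blue squares) and vector (grey triangles). HXK1/HXK2 is the pair whose 3 groups do not overlap, with CTH2 highest and vector lowest.

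In the upper glycolytic steps, from glucose 6-phosphate to the triose phosphates, no gene stood out. The 5 members were phosphoglucose isomerase PGI1, the phosphofructokinase subunits PFK1 and PFK2, aldolase FBA1 and triose phosphate isomerase TPI1. Their differences from vector ran from -0.07 to 0.26 with CTH2 and from -0.21 to 0.17 with CTH1, and all 5 intervals stayed within a factor of 2 in each comparison. The larger phosphofructokinase subunit gene, PFK1, had means of 3676 ± 216 on the CTH2 arrays, 4292 ± 816 on the CTH1 arrays and 3763 ± 109 on the vector arrays (signal, SD, n = 3). FBA1 had the largest difference of these 5 between CTH2 and CTH1, at 0.47 (SE 0.22, limma adjusted p = 0.69). Its signals were 11734, 8647 and 14987 in the CTH2 arrays, against 9314, 7072 and 8700 in the CTH1 arrays, and the ranges overlapped.

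The lower steps yield ATP and pyruvate. Their 8 tested members had median differences of 0.06 with CTH2 and -0.03 with CTH1. For TDH3, the main glyceraldehyde-3-phosphate dehydrogenase, signals averaged 21122 ± 6393 on the CTH2 arrays, 24144 ± 4336 on the CTH1 arrays and 23289 ± 2817 on the vector arrays (SD, n = 3). The isoenzyme gene TDH1 differed by 0.22 with CTH2 and 0.19 with CTH1. A probe set shared by TDH2 and TDH3 differed by 0.06 and 0.07, and one shared by all 3 TDH genes by 0.08 and 0.09, so TDH2 was read only together with its paralogues, where the signals were close to vector.

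PGK1, which makes the first ATP of the pathway, differed by 0.13 with CTH2 and -0.09 with CTH1, and the mutase gene GPM1 by -0.31 and -0.26. The enolase genes ENO1 (repressed by glucose) and ENO2 (used during growth on it) differed by 0.20 and 0.07 with CTH2 and by 0.17 and 0.13 with CTH1. Both, like TDH3, are read by probe sets with the suffix _i_at rather than _at. Whether these sets also read the paralogues was not tested. A further probe set for ENO1 and ENO2 together was outside the fit. It had signals of 16731, 12624 and 16525 in the CTH2 arrays, 16678, 18572 and 15809 in the CTH1 arrays, and 15160, 11095 and 10233 in the vector arrays. Its mean difference from vector was 0.34 with CTH2 and 0.50 with CTH1, and there the CTH1 arrays were above all vector arrays.

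Pyruvate kinase ends glycolysis. CDC19, the main isoenzyme gene, differed by -0.23 with CTH2 (95% interval -0.73 to 0.27) and by -0.33 with CTH1 (-0.83 to 0.18). PYK2, the glucose-repressed isoenzyme gene, was the most variable tested member, with a residual SD of 0.700 beside a median of 0.277 for the members and 0.300 for all genes. Its signals were 228, 225 and 241 in the CTH2 arrays, 244, 58.2 and 194 in the CTH1 arrays, and 152, 272 and 271 in the vector arrays. CTH1 replicate 2 was far below the other arrays, and the difference from vector was 0.05 with CTH2 and -0.67 with CTH1 (SE 0.44, limma adjusted p = 0.81).

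At the branch to ethanol, the 6 tested genes had a median difference from vector of -0.08 with CTH2 and 0.02 with CTH1, with PDC5 and ADH5 the highest at 0.41 each with CTH2. PDC1, the main decarboxylase gene, had 9673, 9011 and 11192 in the CTH2 arrays, 10557, 11255 and 9889 in the CTH1 arrays, and 10250, 12168 and 8762 in the vector arrays. The 3 groups overlapped fully, and the differences from vector were -0.05 and 0.03. PDC5, the isoenzyme gene known to be induced when PDC1 is lost, had 340, 337 and 572 in the CTH2 arrays, 369, 352 and 269 in the CTH1 arrays, and 310, 308 and 295 in the vector arrays. The CTH2 arrays lay above the vector arrays, with a difference of 0.41 (SE 0.24, limma adjusted p = 0.63) that was 0.15 without CTH2 replicate 3. PDC6, a minor isoenzyme gene, had signals of 19.1 to 31.4 with CTH2, 33.2 to 52.0 with CTH1 and 19.6 to 32.7 with vector, most of them under the floor of 43.2.

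ADH1, which reduces acetaldehyde to ethanol, averaged 18106 ± 3592 on the CTH2 arrays, 19272 ± 3972 on the CTH1 arrays and 20131 ± 2613 on the vector arrays (signal, SD, n = 3). The difference was -0.16 with CTH2 (95% interval -0.64 to 0.31) and -0.08 with CTH1 (-0.55 to 0.40). ADH2, the glucose-repressed gene for the enzyme that oxidises ethanol, differed by -0.12 and -0.15, and the mitochondrial ADH3 by -0.16 and 0.01. ADH5 differed by 0.41 with CTH2 (SE 0.31, limma adjusted p = 0.73) and 0.11 with CTH1. Its 3 groups overlapped.

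Acetate is made by the cytosolic aldehyde dehydrogenase Ald6 and the mitochondrial Ald4 and Ald5, and Acs2 joins it to coenzyme A. The 4 genes had differences from vector of -0.32 to 0.24 with CTH2 and -0.12 to 0.17 with CTH1, all with intervals within a factor of 2. ALD4 differed by 0.14 and 0.16, ALD5 by -0.07 and 0.17 and ACS2 by -0.32 and -0.12. ALD6 varied more within groups than between them. Its signals were 1691, 1635 and 958 in the CTH2 arrays, 1433, 789 and 1818 in the CTH1 arrays, and 1352, 838 and 1416 in the vector arrays. In each group 1 array, CTH2 replicate 3, CTH1 replicate 2 and vector replicate 2, was clearly below the other 2. A second ALD6 probe set had signals of 1.24 to 17.1, under the floor on every array.

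The 6 glycerol genes had a median difference from vector of 0.42 with CTH2 and 0.21 with CTH1, beside 0.07 and 0.06 over all genes. Gpd1 and Gpd2 reduce dihydroxyacetone phosphate, and the phosphatases Gpp1 and Gpp2 release glycerol. With CTH2 all 4 formation genes had values above vector, from 0.21 to 0.52 with a median of 0.42, and from 0.11 to 0.43 after median scaling. With CTH1 the values ran from -0.27 to 0.44. In none of these genes were all CTH2 arrays above all vector arrays. Vector replicate 3 was the lowest vector array for GPD1 (signal 1465), GPD2 (490) and GPP2 (440), which raises their differences from vector. GPP1 (YIL053W) had signals of 3463, 3337 and 2442 in the CTH2 arrays, 2981, 3011 and 2647 in the CTH1 arrays, and 2629, 1803 and 2013 in the vector arrays. The CTH1 arrays were just above the vector arrays, and 1 CTH2 array fell among them. The difference was 0.52 with CTH2 (SE 0.21, limma unadjusted p = 0.028, adjusted p = 0.47) and 0.44 with CTH1 (SE 0.21, limma adjusted p = 0.73).

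GPP2, the partner isoenzyme gene and one known to respond to osmotic stress, had signals of 942, 1025 and 726 in the CTH2 arrays, 735, 822 and 736 in the CTH1 arrays, and 774, 706 and 440 in the vector arrays. All groups overlapped. The difference was 0.51 with CTH2 (SE 0.24, limma adjusted p = 0.55) and 0.30 with CTH1 (SE 0.24, limma adjusted p = 0.83). Without vector replicate 3, the lowest array, these values were 0.26 and 0.05. GPD1, also osmotically induced, differed by 0.33 and 0.13, and GPD2 by 0.21 and -0.27. GPD2 had signals of 759, 746 and 767 in the CTH2 arrays, a far narrower range than the 326 to 774 of the CTH1 arrays and the 490 to 904 of the vector arrays.

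The genes of glycerol use differed from each other. Gut1 phosphorylates glycerol, and Gut2 is a flavoprotein of the mitochondrial inner membrane that oxidises glycerol 3-phosphate and passes electrons to ubiquinone. GUT2 (YIL155C) had signals of 376, 525 and 428 in the CTH2 arrays, 291, 442 and 427 in the CTH1 arrays, and 317, 198 and 184 in the vector arrays. All CTH2 arrays were above all vector arrays, and the CTH1 group overlapped vector by 1 array on each side. The difference was 0.96 with CTH2 (SE 0.26, a fold of 1.94, limma unadjusted p = 0.0033, adjusted p = 0.19) and 0.75 with CTH1 (SE 0.26, a fold of 1.68, limma unadjusted p = 0.014, adjusted p = 0.65). Between CTH2 and CTH1 it was 0.21 (95% interval -0.37 to 0.78), and 0.01 without CTH1 replicate 1. Over 16 alternatives the CTH2 difference ran from 0.81 to 1.20, with a limma adjusted p of 0.051 to 0.61.

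GUT1 had signals of 254, 252 and 261 in the CTH2 arrays, 315, 296 and 353 in the CTH1 arrays, and 330, 315 and 261 in the vector arrays. The CTH2 arrays were below all CTH1 arrays and met the vector arrays at 261. The difference from vector was -0.23 with CTH2 (SE 0.2, limma adjusted p = 0.77) and 0.09 with CTH1. Between CTH2 and CTH1 it was -0.33 (SE 0.2, limma adjusted p = 0.79).

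**Figure D5:**
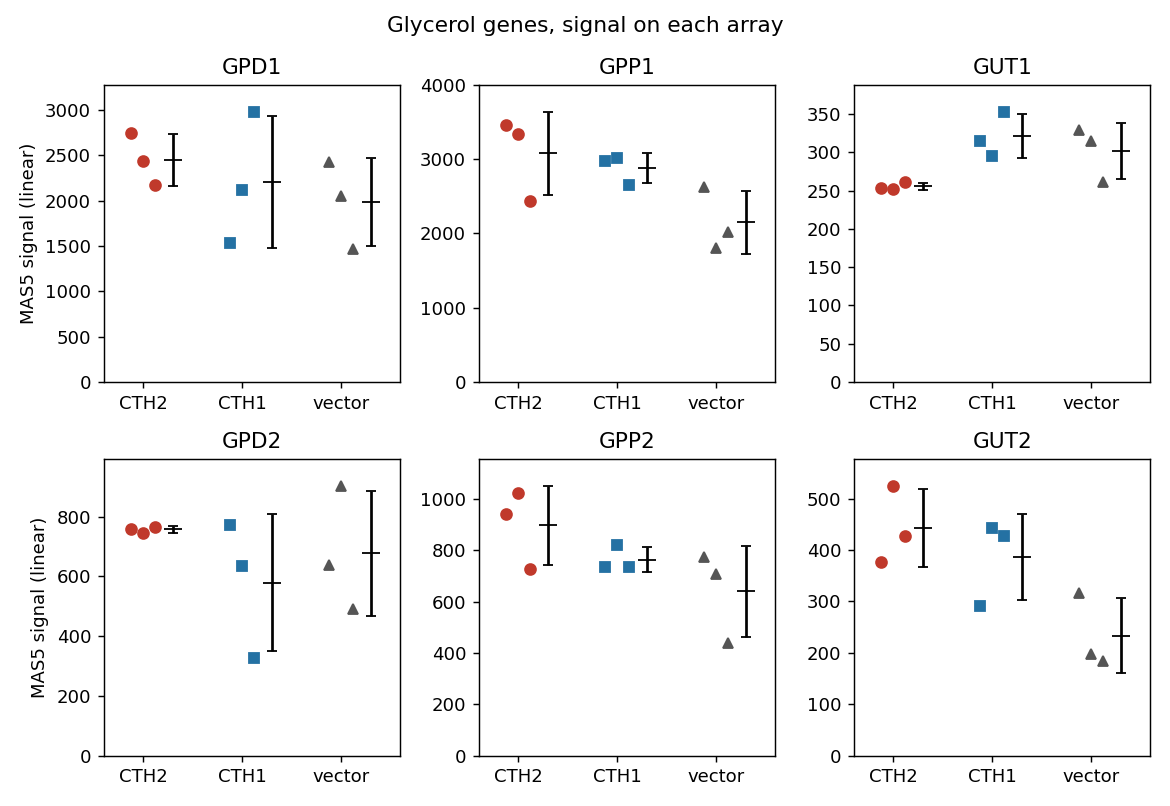
MAS5 signal (linear axis from 0) of the glycerol genes on each array with the CTH2, CTH1 or empty plasmid, with the mean and SD of 3 arrays beside the points. GUT2 is higher on the CTH2 arrays (376 to 525) than on the vector arrays (184 to 317), and GPD1, GPD2 and GPP2 overlap between groups.

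Separation of the arrays was also counted. With CTH2, 4 of 32 had all arrays above all vector arrays (HXK1, GLK1, PDC5 and GUT2), or 12.5%, where 9.48% of all genes did, and 0 had all arrays below, where 6.99% did (16.5% in either direction). With CTH1, 3 of 32 were above (HXK1, GLK1 and GPP1), or 9.38%, where 6.92% of all genes were, and 0 were below, where 3.37% were (10.3% in either direction). Between CTH2 and CTH1, 0 members had all CTH2 arrays above all CTH1 arrays, where 6.28% of all genes did, and 1, GUT1, had them below, where 7.19% did (13.5% in either direction). Within the CTH2 group the members were not evenly spread, as 20 of 32 (62.5%, beside 41.5% of all genes) had their highest signal in replicate 3. Without that array the difference from vector was 0.91 for HXK1, 0.98 for GUT2 and 0.68 for GPP1. For GLK1 it fell from 0.33 to 0.22 and for PDC5 from 0.41 to 0.15.

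Of 10 ribosomal RNA probe sets, 3 had all CTH2 arrays below all vector arrays (beside 6.99% of all genes), 0 had them above (beside 9.48%) and the rest overlapped. A probe set for 18S rRNA had a signal of 239 to 287 with CTH2, 460 to 2162 with CTH1 and 454 to 993 with vector. One for 25S rRNA had 367 to 1010 with CTH2, 884 to 6588 with CTH1 and 3349 to 4649 with vector. The CTH2 arrays were thus below the vector arrays in these sets and above them in HXK1 and GUT2. For ACT1, the signal near the 3′ end over that near the 5′ end ran from 1.20 to 1.40 on the CTH2 arrays, 0.907 to 1.30 on the CTH1 arrays and 1.17 to 1.64 on the vector arrays. Without CTH1 replicate 3, the array that stood apart in short genes, the difference of CTH1 from vector was 0.67 for HXK1, 0.67 for GUT2 and 0.50 for GPP1, and 0 members were called in any comparison. The part of these measures in the results was not tested.

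A list of 30 other genes around the pathway was examined beside the members, among them regulators, minor isoenzymes and the entry points of gluconeogenesis. Of these, 24 passed the filter on dim genes, and limma called 0 in each comparison. Among all genes it called 0.287% for CTH2 against vector, 0% for CTH1 against vector and 0.022% for CTH2 against CTH1. For CTH2 against vector, 1 had an unadjusted p under 0.05 and was higher (4.17%, beside 5.07% of all genes), and 2 were lower (8.33%, beside 4.3%). GPM2, a homologue of the mutase gene, had signals of 125, 166 and 165 with CTH2 against 120, 88.2 and 50.8 with vector (0.89, SE 0.33, limma adjusted p = 0.43). ADH4, an alcohol dehydrogenase gene known to be induced by zinc shortage, had 359, 410 and 455 with CTH2 against 564, 524 and 564 with vector (-0.44, SE 0.19, limma adjusted p = 0.51).

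PYC1, a pyruvate carboxylase gene that supplies oxaloacetate, had 720, 990 and 977 with CTH2 against 1358, 1210 and 1324 with vector (-0.55, SE 0.24, limma adjusted p = 0.51). In these 3 genes the CTH2 and vector arrays did not overlap; in all, 3 of the 24 had every CTH2 array above every vector array (12.5%, beside 9.48% of all genes) and 3 had every one below (6.99% of all genes). ADH4 and PYC1 also had an unadjusted p under 0.05 between CTH2 and CTH1, at -0.50 and -0.63 (limma adjusted p = 0.57 each). They are 8.33% of the 24, beside 3.55% lower and 7.49% in either direction among all genes. Between CTH1 and vector, 0 of the 24 had an unadjusted p under 0.05, beside 3.86% higher and 3.06% lower among all genes. The median difference of the 24 from vector was 0.15 with CTH2 and 0.08 with CTH1, beside 0.07 and 0.06 over all genes.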

How the data were processed

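The authors deposited a linear MAS5 intensity for each probe set on each array. The submitters' processing notes name MAS5 without a version. Trimmed by 2% at each end, the mean over 9335 probe sets was 500.4 to 500.6 on every array, so the arrays share 1 scale. Arrays carry no read depth, and their number limits the precision. Groups came from the sample titles.

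Probe sets with 1 annotated gene (6504, 5656 genes) were used, with the brightest set per gene. Signals were floored at the 10th percentile (43.2) and log2-transformed, and genes whose mean log2 signal passed the 25th percentile (98.4) were tested with limma (version 3.58.1, R 4.3.3; lmFit, eBayes with trend) in 1 model over 9 arrays, with Benjamini-Hochberg adjustment over 4537 genes and a threshold of 0.05. Isoenzyme ratios were tested by exact permutation over arrays. Per-array values are given for members with an unadjusted p under 0.05 or with groups not overlapping vector, and for their isoenzyme partners; others with such values (FBA1, PYK2, ALD6, GPD2, GUT1, the shared ENO1 and ENO2 set) were chosen after seeing them. Members and lists were chosen with earlier results of these data known. The fit was tested on simulated data. Alternatives were scaling, quantile normalization, the floor, the filter, array weights, a replicate block, the groups in the fit and leaving out each array.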

Additional observations from a re-analysis of the deposited data

How the results depend on the processing

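The count of genes called for CTH2 against vector depended on the processing. It was 13, and became 2 with no filter on dim genes, 75 with array weights, 1 with the replicate block, 22 with only the 2 groups and 1 to 26 when single arrays were left out. For CTH2 against CTH1 the count of 1 became 3 with no filter and 26 with array weights, and ran from 1 to 3 with single arrays left out. For CTH1 against vector it was 0, and 0 to 1 with arrays left out. The F test's count of 1 became 7 with median scaling, 6 with the floor at the 25th percentile, 3 with no filter and 66 with array weights, and ran from 1 to 7 with arrays left out.

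Among the members, HXK1 passed for CTH2 against vector after quantile normalization, with array weights and with only the 2 groups (1 member each), and the members called ran from 0 to 1 with arrays left out. With array weights 1 member passed the F test. The isoenzyme count of 1 became 0 with the replicate block, under which the smallest possible p of 0.028 could not pass after adjustment, and ran from 0 to 1 with arrays left out. No pairing by replicate number was seen, as deviations of same-numbered arrays correlated from -0.578 to 0.212. Whether same-numbered cultures were handled together cannot be settled by these correlations. The block changed no other member's call. Differently numbered arrays of different groups correlated from -0.529 to 0.542, the highest being CTH1 replicate 2 with CTH2 replicate 3. What such arrays have in common was not tested. Members with a difference near 0 turned sign: PDC1 was -0.02 with CTH1 after median scaling and 0.08 with CTH2 after quantile normalization, where HXK2 was 0.05. With arrays left out PDC1 ran from -0.17 to 0.07 with CTH2 and from -0.08 to 0.16 with CTH1, HXK2 from -0.20 to 0.03 with CTH2, and GPP1 from -0.01 to 0.24 between CTH2 and CTH1. The cause was not tested. The other probe set of a member could not serve as an alternative, since the second ALD6 set was under the floor on every array and the other members given by array had none of their own. With 3 arrays a group, the 95% intervals of members bound most differences to within a factor of 2, and smaller ones were mostly not detectable. In simulated data with 200 genes changed per draw, the fit called 51.6% of changes of 1 on the log2 scale. It called 4.5% of changes of 0.5, so a change of a factor of 2 could also go uncalled. The simulated noise was drawn separately for each gene and array, without the correlations between arrays given above. The number of genes truly changed in the data is not known, so these rates need not hold there.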
